A study of Mus musculus with 30 samples.

Results

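The ligands of NKG2D are cell-surface proteins that mark stressed, infected or transformed cells for natural killer (NK) cells, and their transcripts are described here across tumors of 5 fibrosarcoma lines. NKG2D, encoded by Klrk1, is an activating receptor of NK cells, ILC1 and some T cells, and it signals through the adaptors DAP10 (Hcst) and DAP12 (Tyrobp). Its mouse ligands are distant relatives of MHC class I that bind no peptide. They form the RAE-1 group, the H60 group and MULT1, and in many cell types they are scarce until DNA damage, proliferation or transformation induces them. The 5 genes were chosen by symbol as known mouse ligands, out of 48440 genes in the count table: Raet1d and Raet1e, which encode the GPI-anchored RAE-1 delta and epsilon, Ulbp1, which encodes the transmembrane protein MULT1, and H60b and H60c. The table names none of Raet1a, Raet1b, Raet1c and H60a.

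RNA was sequenced from 30 tumors grown in C57BL/6 mice from 5 primary cell lines, each derived from a sarcoma induced by the carcinogen 3-methylcholanthrene (MCA). The study classed MCA-943 (4 tumors) and MCA-969 (8 tumors) as non-sensitive to NK1.1+ cells, and MCA-948 (8), MCA-970 (6) and MCA-972 (4) as sensitive. CD45 beads had been used to remove hematopoietic cells from the tumor cell suspensions, so that the RNA came from tumor cells with other CD45- cells and whatever leukocytes remained. The strain label is Ncr1Cre for MCA-943 and Ncr1Cre R26DTA for the other lines. In Ncr1Cre R26DTA mice, Cre made in NKp46-expressing cells turns on a diphtheria toxin subunit. The labels do not say whether the strain is that of the donor of the line or the host. It was the same for all tumors of a line. The study induced primary tumors in mice of both genotypes and transplanted the lines into C57BL/6 mice, so that the label goes with the donor. The design text speaks of hosts with and without NK cells. The titles carry a letter, W (12 tumors) or a (17 tumors), whose meaning no source used here gives, and 1 MCA-972 tumor has no letter. No ages are given in the labels. In each line the replicates were tumors of 1 cell line, so that differences between lines are differences between individual sarcomas, and the labels do not say whether a separate host animal stood behind each tumor. Of the MCA-969 tumors, 2 (W-1D, then W-2D) carry a sensitivity label opposite to that of the line, and both were kept with it.

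Counts assigned to genes ran from 27745104 to 46537062 per tumor (median 35039383). Levels are given as counts per 1000000 (CPM) after TMM scaling, and all intervals and limits cover counting error or the spread between tumors only. Fibroblast markers such as Col1a1 and Vim were abundant in every tumor, with a summed level between 15365 and 80861 CPM. Residual leukocyte markers summed to between 10.7 CPM and 308 CPM and were highest in MCA-970 W-1D, MCA-970 W-R, MCA-943 W-2G and MCA-943 a-1D. Of the 15 leukocyte markers, 14 had counts in every line. The other, Ncr1, was at 0 in MCA-972, which has no W tumor, and in every a tumor of MCA-948, MCA-969 and MCA-970. The library numbers in the headers form 3 sets, which neither labels nor headers call runs, and the set of the MCA-943 tumors also held MCA-948 tumors but none of the other lines. In bulk RNA, fewer cells of a type and less RNA per cell cannot be told apart.

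All 5 genes lie on chromosome 10 (GRCm38, GENCODE M21). Raet1d (ENSMUSG00000078452, chr10:22360552-22374139, forward) lies inside the annotated span of Raet1e (ENSMUSG00000053219, chr10:22158569-22374139, forward), and so does H60b (ENSMUSG00000075297, chr10:22158586-22288849, forward). Ulbp1 (ENSMUSG00000079685, chr10:7440362-7473638) and H60c (ENSMUSG00000091618, chr10:3256208-3267771) are on the reverse strand. Raet1e shares 363 exon bases with Raet1d and 133 with H60b. The main transcripts of Raet1d and Raet1e are 96.6% identical over 1258 aligned bases, and 44.1% of the 75-base words of Raet1d occur in another gene. How reads in these stretches were divided depends on options of the counting that are not given in the sources used here, so that values of Raet1d, Raet1e and, less so, H60b are uncertain to that extent. Ulbp1 shares no exon base with another gene.

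The stretch upstream of the Raet1d start and of the second Raet1e start in RefSeq (GRCm38.p6) is shown because these genes are near copies that were nonetheless measured in different proportions in different lines. Capitals mark the bases that differ, and bases inside annotated exons are left out. The first is chr10:22361646-22361893 and the second is chr10:22173251-22173496, both on the forward strand.
Raet1d: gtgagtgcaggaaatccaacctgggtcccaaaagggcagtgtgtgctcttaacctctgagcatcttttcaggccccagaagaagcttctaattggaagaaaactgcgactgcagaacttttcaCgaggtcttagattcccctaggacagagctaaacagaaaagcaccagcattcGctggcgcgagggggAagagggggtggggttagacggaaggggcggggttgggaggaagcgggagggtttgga
Raet1e: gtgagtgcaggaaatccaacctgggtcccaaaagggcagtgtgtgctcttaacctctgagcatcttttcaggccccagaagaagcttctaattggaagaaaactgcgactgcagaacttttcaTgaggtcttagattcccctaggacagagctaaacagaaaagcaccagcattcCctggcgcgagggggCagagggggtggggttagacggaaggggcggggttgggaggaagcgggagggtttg
Over 246 aligned bases 243 were identical (98.8%). Counted from the first base shown, the 3 substitutions are C124T, G176C and A191C, with the Raet1d base first. Both windows of the 250 bases before the start hold a CCAAT box (CCAAT), found in 33.8% of the 32851 promoter windows searched, and a GC box (GGGCGG), found in 32.7%, each on either strand. Neither holds TTCCCGC, a core of sites for the E2F factors known to drive Raet1 genes during proliferation. The Ulbp1 window does hold it, 177 bases before the RefSeq start, as do 3.82% of all windows, and the part of that window outside exons (chr10:7473639-7473727, reverse strand) reads as follows with this core in capitals.
Ulbp1: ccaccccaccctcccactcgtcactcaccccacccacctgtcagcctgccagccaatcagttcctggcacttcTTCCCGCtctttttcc
These matches describe letters and not binding. H60b has no entry in the promoter table.

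Ulbp1 had the highest CPM of the ligands in every tumor. Per kilobase of the gene length given with the counts, its mean level over the 30 tumors was 17.4 CPM, against 1.04 CPM per kilobase for Raet1d, 0.777 for Raet1e and 0.114 for H60b. It made up between 63.6% and 99.2% of the summed ligand level per kilobase. The length used for Ulbp1, 1819 bases, is shorter than the 6726 exon bases of GENCODE M21. A longer length would lower its level and its share per kilobase. With 6726 bases its level per kilobase in MCA-970 a-1D would fall below that of Raet1d (5.13 CPM per kilobase). Its lead per kilobase in every tumor thus depends on the length used. H60c, known mainly from skin, had 1 count in 1 tumor (MCA-969 a-1D) and 0 counts in 29, which allows at most 0.0602 to 0.113 CPM per tumor. It was not tested.

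**Figure D1:**
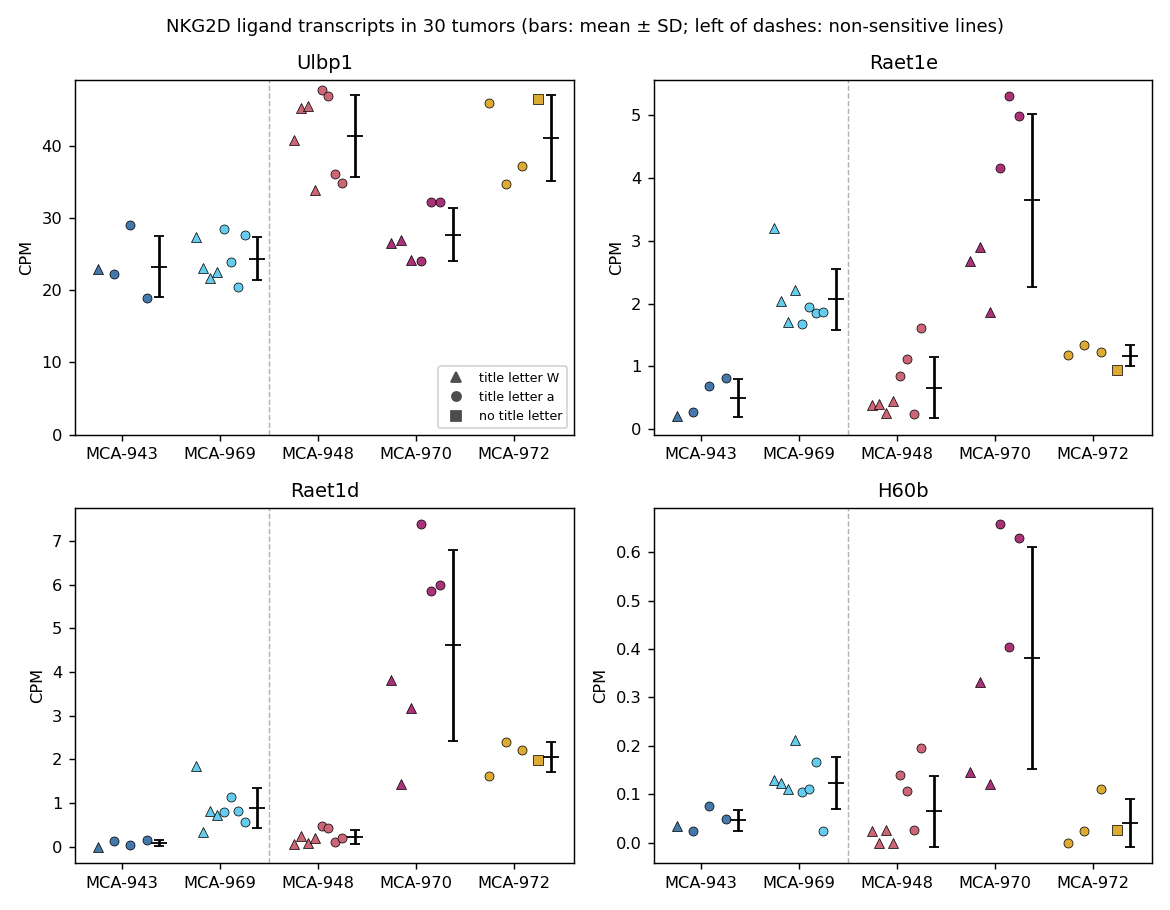
CPM of Ulbp1, Raet1e, Raet1d and H60b in each of the 30 tumors by line, with the title letter as symbol and the mean ± SD beside each line. Ulbp1 stayed between 18.9 and 47.8 CPM, whereas Raet1d ran from 0 to 7.39 CPM, with its highest values in MCA-970.

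Raet1d differed most between lines. In MCA-943 the tumors had 0, 0.123, 0.0378 and 0.147 CPM, from 0 to 6 counts each. In MCA-972 they had 1.61, 2.40, 2.23 and 1.98 CPM. The MCA-970 tumors ran from 1.44 to 7.39 CPM with a median of 4.85. The tumors of MCA-943 thus all lay below every tumor of MCA-972 and MCA-970, whose own ranges overlapped. In the other lines Raet1d ran from 0.340 to 1.86 CPM in MCA-969 (median 0.807) and from 0.0749 to 0.482 CPM in MCA-948 (median 0.200). The order of the line means was MCA-970 at 4.62 ± 2.19 CPM (SD, n = 6), MCA-972 at 2.05 ± 0.341 (n = 4), MCA-969 at 0.886 ± 0.454 (n = 8), MCA-948 at 0.226 ± 0.154 (n = 8) and MCA-943 at 0.0770 ± 0.0695 (n = 4). Of the neighbours in this order, MCA-948 and MCA-943 did not differ past the threshold (log2 fold change 1.40 ± 0.64 SE, edgeR adjusted p = 0.0569).

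Raet1e was less spread. Its tumors had 0.203, 0.271, 0.680 and 0.808 CPM in MCA-943 and 1.17, 1.34, 1.22 and 0.938 CPM in MCA-972. They ran from 1.68 to 3.20 CPM in MCA-969 (median 1.91), from 0.235 to 1.604 CPM in MCA-948 (median 0.418) and from 1.86 to 5.31 CPM in MCA-970 (median 3.53). All tumors of MCA-969 and MCA-970 were above all tumors of MCA-943, MCA-948 and MCA-972. The line means fell from MCA-970 (3.65 ± 1.38 CPM, SD) through MCA-969 (2.06 ± 0.490), MCA-972 (1.17 ± 0.171) and MCA-948 (0.658 ± 0.490) to MCA-943 (0.491 ± 0.299). None of the 4 neighbouring pairs in that order passed the test by edgeR, with adjusted p from 0.0310, where the log2 difference was 0.82, to 0.414.

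Ulbp1 moved within a narrow band. Its tumors had 22.9, 22.3, 29.1 and 18.9 CPM in MCA-943 and 46.0, 34.8, 37.2 and 46.6 CPM in MCA-972. The range was 20.5 to 28.5 CPM in MCA-969 (median 23.5), 33.9 to 47.8 CPM in MCA-948 (median 43.1) and 24.1 to 32.3 CPM in MCA-970 (median 26.8). All tumors of MCA-948 and MCA-972 were thus above all tumors of the other lines, and those of MCA-943, MCA-969 and MCA-970 overlapped. The highest line mean was 1.78 times the lowest, against 59.9 times for Raet1d, 7.43 times for Raet1e and 9.43 times for H60b.

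H60b, of the H60 group, was near the limit of detection. It had at most 7 counts in any tumor outside MCA-970 and between 4 and 26 counts in the 6 MCA-970 tumors. In MCA-943 the tumors had 0.0339, 0.0247, 0.0756 and 0.0490 CPM. The range was 0.0240 to 0.213 CPM in MCA-969 (median 0.118) and 0 to 0.196 CPM in MCA-948 (median 0.0257). These lines overlapped. The MCA-970 range was 0.122 to 0.658 CPM (median 0.367), and in MCA-972 the tumors had 0, 0.0245, 0.111 and 0.0261 CPM. Of the 6 MCA-970 tumors, 4 lay above every tumor of the other lines, and the lowest ones overlapped with MCA-969 and MCA-948. H60b passed the filter on low counts only through MCA-970: without W-2D, a-1D, a-2D or a-2G of that line it did not pass. Its differences from MCA-970 are therefore given as values and are not counted as support, although all 4 were also past the threshold with no filter.

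Between lines, calls came from edgeR's quasi-likelihood test and needed an adjusted p (Benjamini-Hochberg) below 0.05 together with a change of at least 1 on the log2 scale in either direction. Raet1d, Raet1e and Ulbp1 differed over the 5 lines when any difference was asked for (edgeR F test), as did 94.1% of the 16862 genes tested, so that this count says little about the ligands. By the size of the F statistic, 19.9% of genes exceeded Raet1d, 39.2% exceeded Ulbp1 and 47.9% exceeded Raet1e.

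The 6 comparisons that set 1 non-sensitive line against 1 sensitive line address whether the ligands follow the sensitivity of the lines. Against MCA-970, MCA-943 had lower Raet1d (log2 fold change -5.72 ± 0.63 SE, adjusted p = 6.49e-09, 52.6-fold) and Raet1e (-2.88 ± 0.46, adjusted p = 4.15e-06) in edgeR, where 27.3% of all genes were called and 14.8% were called lower. The H60b value there was -3.03 ± 0.72. Against MCA-972, 2 ligands were lower in MCA-943 (Raet1d by -4.55 ± 0.64 and Raet1e by -1.25 ± 0.48), beside 25.6% of all genes called and 13.4% called lower. Against MCA-948, none of the 4 ligands was called in MCA-943 (29.0% of all genes were). For Raet1d this depended on the setting: the comparison was called, with less in MCA-943, under DESeq2, without the MCA-969 tumors of opposite label, on a tumors only and with the library set as a covariate. MCA-969 had more Raet1d (log2 fold change 1.94 ± 0.40, edgeR adjusted p = 0.000108) and Raet1e (1.65 ± 0.33, adjusted p = 7.39e-05) than MCA-948, where 20.8% of all genes were called and 16.8% were called higher. It had less Raet1d than MCA-970 (-2.38 ± 0.37, 21.4% of all genes called, 10.7% lower) and than MCA-972 (-1.21 ± 0.41, 20.6% called, 10.3% lower). The H60b value of MCA-969 against MCA-970 was -1.63 ± 0.48. Raet1d was thus called in 5 of these 6 comparisons, lower in the non-sensitive line in 4 and higher in 1. The 1 call in the other direction was against MCA-948, the sensitive line with the lowest Raet1d mean. The comparisons share lines and are not independent of each other.

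**Figure D2:**
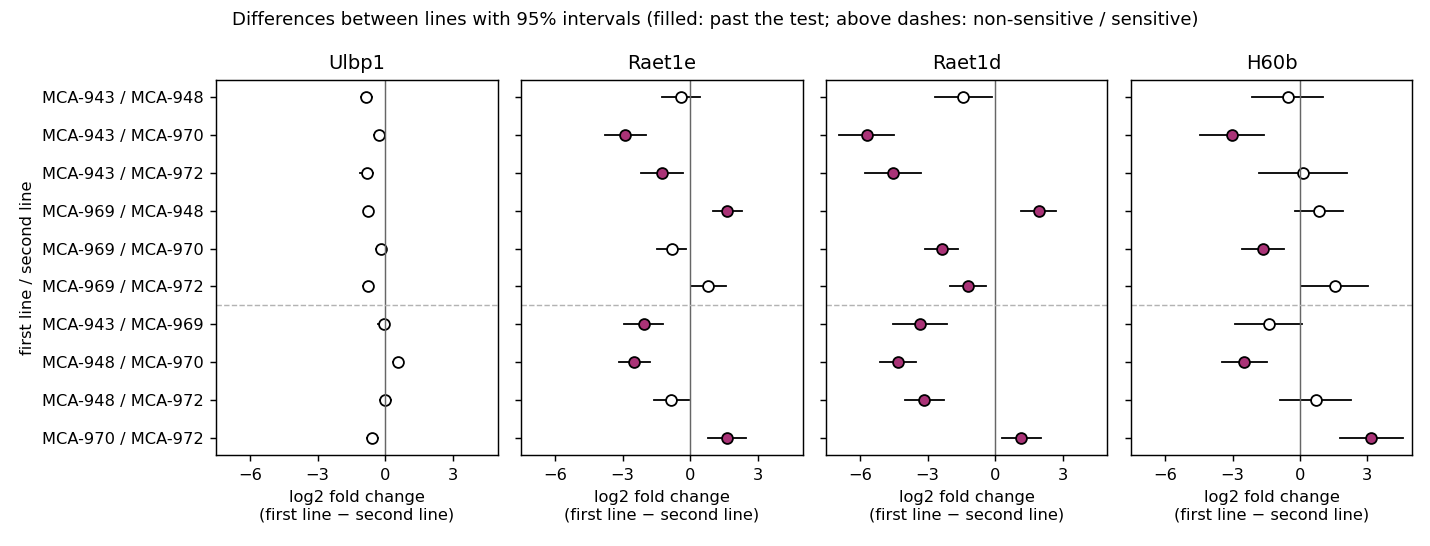
Log2 fold changes between lines (first minus second) with 95% intervals for each ligand, filled where past the threshold (H60b, against MCA-970, as values only). Above the dashed line are the 6 comparisons between the classes, in which Raet1d runs from -5.72 to 1.94 and Ulbp1 from -0.83 to -0.18.

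Ulbp1 was not called between any lines, since no change reached 1 on the log2 scale. Its log2 fold change was -0.83 (95% interval -1.08 to -0.59) for MCA-943 against MCA-948, -0.82 (-1.10 to -0.55) against MCA-972, -0.76 (-0.96 to -0.57) for MCA-969 against MCA-948 and -0.75 (-0.98 to -0.52) against MCA-972, with edgeR adjusted p from 1.26e-07 to 1.34e-05. Against MCA-970 the differences were smaller, -0.25 (-0.51 to 0.00029) for MCA-943 and -0.18 (-0.39 to 0.026) for MCA-969, with adjusted p of 0.0912 and 0.138. Without the threshold on size, 6 of the 10 comparisons between lines would have been called for Ulbp1.

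Among lines of one class the ligands differed as well. MCA-943 and MCA-969, both non-sensitive, differed in Raet1d (log2 fold change -3.34 ± 0.61, edgeR adjusted p = 2.35e-05) and Raet1e (-2.06 ± 0.44, adjusted p = 0.000183), 2 of 4 ligands beside 27.0% of all genes called and 14.9% called lower. MCA-948 and MCA-970, both sensitive, differed in Raet1d (-4.31 ± 0.41) and Raet1e (-2.47 ± 0.35), beside 29.4% of all genes called and 19.8% called lower, and the H60b value was -2.48 ± 0.52. The Ulbp1 difference there was 0.58 ± 0.11, opposite in sign to these and under the threshold on size. MCA-948 had less Raet1d than MCA-972 (-3.14 ± 0.44, 26.8% of all genes called, 18.5% lower), and MCA-970 had more Raet1d and Raet1e than MCA-972 (1.17 ± 0.44 and 1.64 ± 0.42, 17.6% of all genes called, 8.56% higher), with an H60b value of 3.17 ± 0.71. The excess of Raet1d in MCA-970 over MCA-972 (adjusted p = 0.0298) was lost on leaving out MCA-970 a-1D (log2 fold change 0.99), a-2D (1.09) or a-2G (1.08), or MCA-972 a-1 (1.07), a-R (1.21) or 2G (1.16). The Raet1e difference between MCA-943 and MCA-972 (adjusted p = 0.0278) was lost without MCA-943 W-2G (-1.01) or a-1D (-1.05) or MCA-972 a-1G (-1.20).

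With the line as the unit, the 2 non-sensitive lines were compared with the 3 sensitive lines by an exact permutation test over line means, two-sided, whose smallest possible p is 0.1. For Ulbp1 both non-sensitive lines lay below all sensitive lines, with a difference of -0.60 in mean log2 CPM (exact p = 0.2). Line means that do not overlap between the classes were found for 16.7% of all tested genes. For Raet1d the difference was -2.02 (exact p = 0.4), for Raet1e -0.44 (exact p = 0.7) and for H60b -0.22 (exact p = 0.9), with overlapping lines in each. Taken tumor by tumor, Ulbp1 did overlap between the classes through MCA-970, and 1.28% of all genes had all non-sensitive tumors on one side of all sensitive tumors. With 5 lines no difference between the classes could pass 0.05.

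The sets of library numbers overlapped with the lines, and the calls were set against them. Whether they were separate sequencing runs is not given. Within the first set, which held 6 MCA-969 and 4 MCA-972 tumors, Raet1d was lower in MCA-969 (-1.33 ± 0.21, edgeR adjusted p = 0.000183), and the values were -0.77 ± 0.12 for Ulbp1 and 0.68 ± 0.17 for Raet1e, both under the threshold on size. Within the second set Raet1d was lower in MCA-969 than in MCA-970 (-2.04 ± 0.72, adjusted p = 0.0445), and MCA-948 was lower than MCA-970 in Raet1d (-4.93 ± 0.94) and Raet1e (-1.99 ± 0.67). With 2 tumors of each in that set, MCA-969 and MCA-948 differed by 2.88 ± 0.98 in Raet1d (adjusted p = 0.0641) and by 1.53 ± 0.74 in Raet1e (adjusted p = 0.180), neither past the threshold. Within the third set the Ulbp1 difference of MCA-943 from MCA-948 was -0.93 ± 0.13, and Raet1d was not tested there for lack of counts. With the set as a covariate over all tumors, Raet1d had 9 calls, against 9 without it, with MCA-943 against MCA-948 gained and MCA-970 against MCA-972 lost, whereas Raet1e went from 6 to 2, H60b from 4 to 1 and Ulbp1 from 0 to 1. The Raet1e values no longer called were -1.76 for MCA-943 against MCA-969, -1.08 for MCA-943 against MCA-972, 1.16 for MCA-970 against MCA-972, and 1.54 between MCA-969 and MCA-948. MCA-943 shared no set with MCA-969, MCA-970 or MCA-972, and MCA-972 shared none with MCA-948 or MCA-970. Differences between these lines can be told from the library set only through lines that fall in several sets.

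Raet1d and Raet1e did not keep one proportion. Raet1d made up 0%, 31.2%, 5.26% and 15.4% of the counts of both genes in the MCA-943 tumors, on 6 to 39 counts each, and 57.8%, 64.1%, 64.5% and 67.9% in the MCA-972 tumors. Its share ran from 14.3% to 36.9% in MCA-969 (median 31.4%), from 10.9% to 38.1% in MCA-948 (median 29.2%) and from 33.1% to 64.0% in MCA-970 (median 56.8%). All MCA-972 tumors lay above all tumors of MCA-943, MCA-969 and MCA-948, and 5 of the 6 MCA-970 tumors did so too. The exact 95% interval (Clopper-Pearson) was 58.4% to 76.4% in MCA-972 2G, and 0% to 45.9% in MCA-943 W-2G, which had 6 counts in all. MCA-969, the line with more Raet1e, and MCA-972, the line with more Raet1d, had mean shares of 29.0% and 63.6% (exact permutation test over 12 tumors, p = 0.00202, the smallest it can give, and adjusted p = 0.00505 over 10 pairs of lines). Within the first set the means were 30.1% and 63.6% (exact p = 0.00476). MCA-970 against MCA-972 (adjusted p = 0.169), MCA-969 against MCA-948 (0.632) and MCA-943 against MCA-948 (0.0859) did not pass 0.05 by the exact permutation test. These shares were compared after the levels had been seen, and reads that fit both genes could have moved them.

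**Figure D3:**
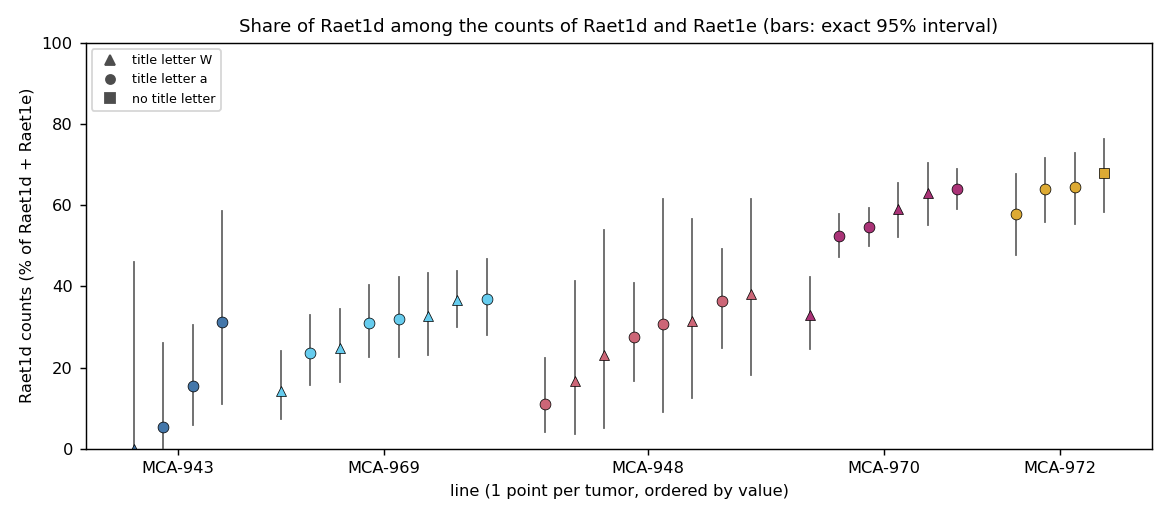
Share of Raet1d among the counts of Raet1d and Raet1e in each tumor, with exact 95% intervals, ordered by value within each line. The 4 MCA-972 tumors lie between 57.8% and 67.9%, above all tumors of MCA-943, MCA-969 and MCA-948.

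The title letters were compared over the 26 tumors of the 4 lines that carry both, with the line in the model (12 W and 14 a). No ligand was called by edgeR, beside 0.230% of 16557 genes. The log2 fold change of W over a tumors was -0.66 ± 0.25 for Raet1e (unadjusted p = 0.0146, adjusted p = 0.511), -0.95 ± 0.38 for H60b (unadjusted p = 0.0184, adjusted p = 0.536), -0.68 ± 0.31 for Raet1d (unadjusted p = 0.0394, adjusted p = 0.652) and -0.08 ± 0.08 for Ulbp1 (adjusted p = 0.940, 95% interval -0.24 to 0.073). At an unadjusted p under 0.05 the count was 3 of the 4 ligands, and DESeq2 and limma-voom also called 0 after adjustment and 3 before it. The share of all genes at that unadjusted p was not counted, so this count is not read as a result about the ligands. H60b, 1 of the 3, rests on few counts. The unadjusted count moved between 0 and 4. It was 4 with the library set as a covariate. The count was 1 without MCA-970 W-2D, a-1D, a-2D or a-2G, fits in which H60b failed the filter and was not tested. It was 0 in the fits with marker scores or without the tumors of highest leukocyte sum, given below. The receptor gene Klrk1 was higher in W tumors (log2 fold change 4.15 ± 0.54, edgeR adjusted p = 7.37e-05), with 0.0207 CPM on average in the a tumors of MCA-970 and 2.53 CPM in its W tumors. The NK cell and ILC1 markers Ncr1 and Klrb1c were also higher in W tumors (log2 fold change 5.56 and 2.36 in edgeR), and Ncr1 was between 0.0276 and 2.57 CPM in the W tumors of MCA-948, MCA-969 and MCA-970.

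Line by line, the W and a tumors were separate for 3 ligands in MCA-970. There Raet1d was 3.83, 1.44 and 3.18 CPM in the W tumors and 7.39, 5.87 and 6.00 CPM in the a tumors. Raet1e was 2.67, 2.91 and 1.86 CPM against 4.16, 5.31 and 4.98 CPM, and H60b was 0.145, 0.331 and 0.122 CPM against 0.658, 0.404 and 0.629 CPM. For each of the 3 genes every W tumor lay below every a tumor (exact permutation p = 0.1 each, the smallest that 3 against 3 allows). Raet1e shares exon bases with Raet1d and with H60b, so that the 3 genes are not independent observations. How many of all genes separate W from a tumors within a line was not counted, so that separation is given as a description only. In MCA-948, H60b was 0 to 0.0253 CPM in W and 0.0261 to 0.196 CPM in a tumors, without overlap but on 0 to 7 counts (exact permutation p = 0.0286, the smallest that 4 against 4 allows), and Raet1e overlapped. In MCA-969 the W mean was above the a mean for Raet1e (2.29 against 1.84 CPM) and H60b (0.144 against 0.102 CPM), with overlapping tumors. Raet1d there was 1.86, 0.340, 0.828 and 0.730 CPM in W and between 0.576 and 1.14 CPM in a tumors, a difference of -0.025 in mean log2 CPM, and W-1D was the highest of the 8. Whether the effect of the letter differed among the lines was tested as an interaction in edgeR, and no ligand passed it (adjusted p = 0.406 for Raet1e, 0.386 for H60b, 0.535 for Raet1d and 0.944 for Ulbp1, beside 0.0181% of all genes).

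**Figure D4:**
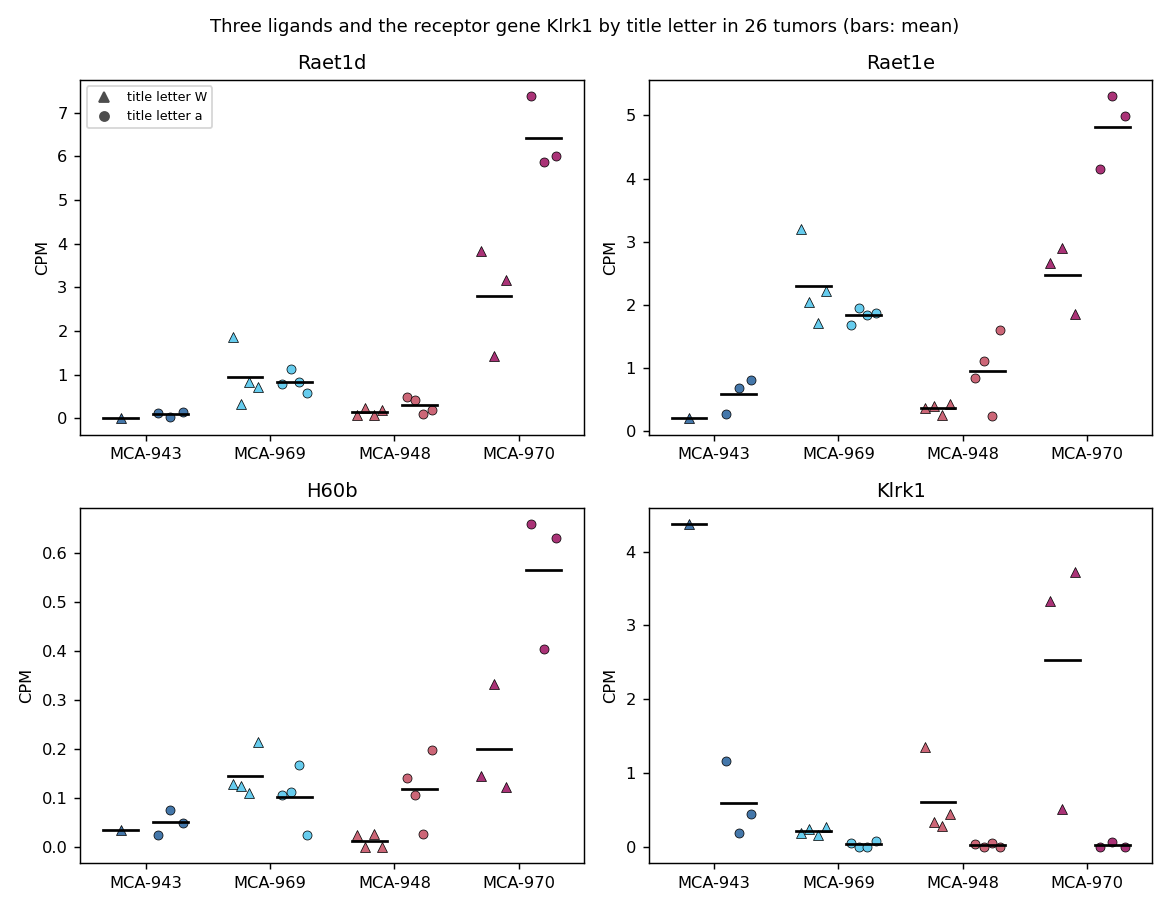
CPM of Raet1d, Raet1e, H60b and the receptor gene Klrk1 by line and title letter in 26 tumors, with bars at the mean (MCA-943 has 1 W tumor). In MCA-970 the 3 W tumors lie below the 3 a tumors for each ligand shown and above them for Klrk1.

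Markers of other cells also differed between lines, and in part between letters. The summed level of 4 endothelial markers (Pecam1, Cdh5, Kdr and Tek, none at 0 in any line) was 248 to 425 CPM in MCA-970, 53.7 to 107 in MCA-943, 52.7 to 165 in MCA-969, 15.1 to 297 in MCA-948 and 38.1 to 97.9 in MCA-972. Without Cdh5 the sum was 30.7 to 174 CPM in MCA-970, which overlapped with every other line (8.22 to 171 CPM in MCA-948). Its median was then 158 CPM in MCA-970 and at most 59.2 CPM in another line. The markers did not move alike: Cdh5 was at 236 ± 18.1 CPM in MCA-970 and at most 49.1 CPM on average in another line, Pecam1 at 85.0 ± 42.7 and at most 39.1 CPM, and Kdr at 33.4 ± 17.1 and at most 18.9 CPM, whereas Tek was at 5.48 CPM in MCA-970 and 7.90 in MCA-972. The a tumors had a median sum of 416 CPM in MCA-970 and 180 in MCA-948, against 268 and 30.5 in the W tumors. The letters overlapped in both lines. In MCA-970 the W tumors had 248 to 405 CPM and the a tumors 397 to 425 CPM. In MCA-948 they had 15.1 to 89.5 and 32.0 to 297 CPM. In MCA-969 the order of the medians was the other way, with 98.7 CPM in the a and 127 CPM in the W tumors. With the mean log2 level of the 4 markers as a covariate, H60b had 1 call in place of 4 between lines (edgeR) and its difference between MCA-969 and MCA-970 went from -1.63 to -0.39. The counts for Raet1e and Raet1d stayed at 6 and 9, although MCA-970 against MCA-972 was no longer called for either (0.75 and 0.30) and MCA-948 against MCA-972 became a call for Raet1e (-1.01), as did MCA-943 against MCA-948 for Raet1d. The W against a difference shrank to -0.19 for Raet1e, -0.26 for H60b and -0.27 for Raet1d, and no ligand then had an unadjusted p under 0.05. With Cdh5 left out of the score, H60b had 3 calls and the letter differences were -0.15, -0.18 and -0.24. These fits are a description only, and which cells carried the transcripts was not tested.

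**Figure D5:**
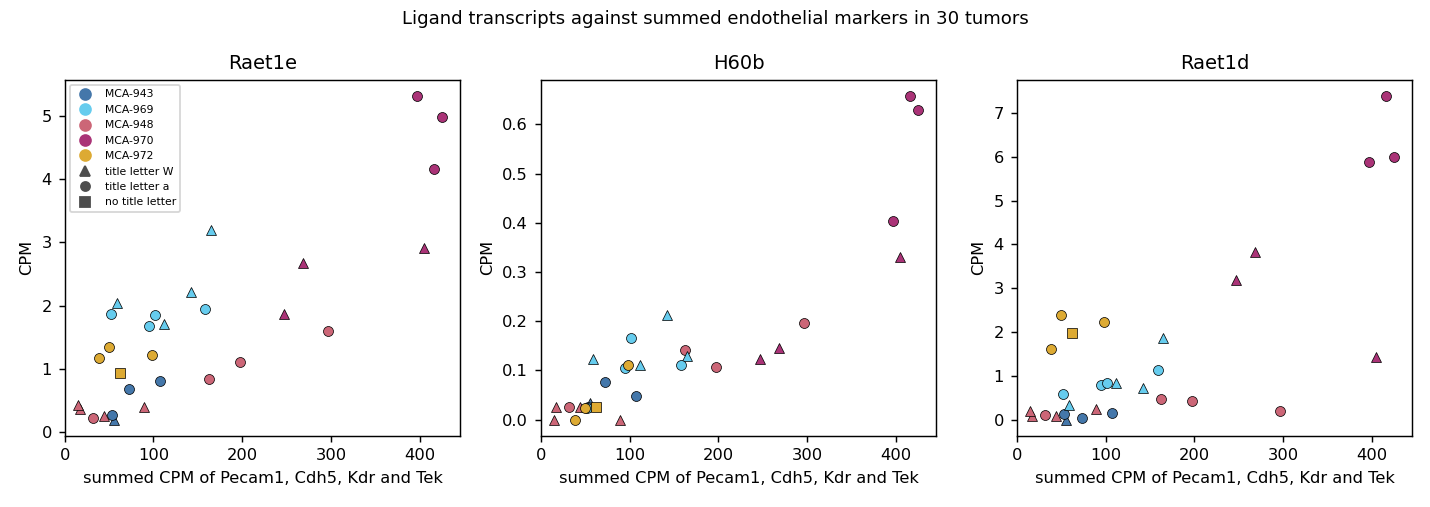
CPM of Raet1e, H60b and Raet1d against the summed CPM of 4 endothelial markers in each tumor, coloured by line. The MCA-970 tumors have marker sums of 248 to 425 CPM, a range that also holds MCA-948 a-R at 297 CPM, while MCA-972 reaches 2.40 CPM of Raet1d at marker sums of at most 97.9 CPM. Without Cdh5 (not shown) the MCA-970 sums were 30.7 to 174 CPM and overlapped with every other line.

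Leukocyte markers also differed, with a median sum of 191 CPM in the W and 37.3 CPM in the a tumors of MCA-970, but 13.6 and 30.4 CPM in MCA-969. The MCA-970 letters overlapped, at 23.9 to 308 CPM in W and 24.5 to 44.1 CPM in a tumors. In MCA-948 the medians were 76.9 CPM in W and 69.1 CPM in a tumors. The 1 W tumor of MCA-943 had 147 CPM, against a median of 26.8 CPM in its a tumors. With a leukocyte score as a covariate, Raet1d again had 9 and Raet1e 6 calls between lines. Raet1e in MCA-943 against MCA-972 was lost and Raet1e in MCA-969 against MCA-970 was gained. The W against a difference was -0.33 for Raet1e, -0.40 for H60b and -0.61 for Raet1d. Leaving out the 4 tumors with the highest leukocyte sums gave 9 and 6 calls with the same exchange, and letter differences of -0.48, -0.65 and -0.61. In neither fit did a ligand have an unadjusted p under 0.05 for the letter.

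Other tissue markers were low in these tumors. The line means of the keratinocyte markers Krt5, Krt14, Krt10 and Trp63 were at most 2.61 CPM, those of the muscle markers Acta1, Ckm and Mylpf at most 4.10 CPM, and those of the adipocyte markers Adipoq and Plin1 at most 0.0799 CPM. Exceptions were Ttn, at 26.7 ± 17.7 CPM in MCA-948, and Fabp4, which endothelial cells also make, at 21.2 ± 11.4 CPM in MCA-970. Their part in the ligand values was not tested.

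The receptor side was measured at low levels. Klrk1 ran from 0 to 4.37 CPM, and its line means depend on the letters, since MCA-972 has no W tumor. Among the a tumors it averaged 0.596 CPM in MCA-943, 0.0311 in MCA-969, 0.0231 in MCA-948 and 0.0207 in MCA-970, and it was 0.0273, 0.0978 and 0.0557 CPM in MCA-972. It was called in 3 of the 6 comparisons between the classes, with the non-sensitive line higher in 2, in a fit that pools the letters and in which MCA-943 W-2G had 4.37 CPM. Tyrobp had line means from 0.828 CPM in MCA-969 to 5.004 CPM in MCA-943 and was lower in MCA-969 than in MCA-970 (log2 fold change -1.86, edgeR adjusted p = 0.0203). Hcst stayed at or below 0.305 CPM and was not tested.

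Genes that act on the ligands after synthesis were taken as a list of 8, which holds proteases (Adam10, Adam17, Mmp2, Mmp9 and Mmp14), the disulfide isomerase Pdia6, and March4 and March9, ubiquitin ligases known to remove MULT1 from the cell surface. Over the 6 comparisons, 7 of 48 gene-comparisons were calls with the non-sensitive line higher, 4 with it lower and 37 were not called, where 20.6% to 29.0% of all genes were called per comparison. No gene of the list was called in 5 or more of them. March9, chosen after its values were seen, was called in 4, each time with more in the non-sensitive line, and had 4.88 ± 0.816 CPM in MCA-943, 2.69 ± 0.389 in MCA-969, 3.66 ± 1.31 in MCA-948, 1.26 ± 0.478 in MCA-970 and 0.241 ± 0.0974 in MCA-972. In March9, MCA-948 overlapped with both non-sensitive lines. March4 went both ways, called in 1 comparison with the non-sensitive line higher and in 2 with it lower.

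A list of 12 genes linked to the control of the ligands holds the DNA damage kinases Atm, Atr, Chek1 and Chek2, Trp53, the E2F genes E2f1, E2f2 and E2f3, Myc, Hsf1, the deacetylase gene Hdac3 and Pik3ca. Of 72 gene-comparisons, 11 were calls with the non-sensitive line higher, 3 with it lower and 58 were not called, against the same 20.6% to 29.0% of all genes per comparison. Trp53, also chosen after its values were seen, was at 2.15 ± 1.52 CPM in MCA-948 and 25.0 ± 3.67 CPM in MCA-970, against 93.6 ± 6.61 in MCA-972, 112 ± 3.46 in MCA-943 and 142 ± 20.7 in MCA-969. MCA-948 and MCA-970, the lines with the least Trp53, were at opposite ends of the sensitive lines for Raet1d. Whether Trp53 bears on the level of any ligand was not tested.

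The genes whose log2 CPM followed each ligand most closely over the 30 tumors are given as a description, since tumors of one line share their origin. For Raet1d they were Col24a1, a collagen gene (Pearson's r = 0.95), the kinase gene Hunk (0.95) and Mlf1 (0.95), all lowest on average in MCA-943 and highest in MCA-970. After removal of the line means, r was 0.49, 0.51 and 0.55. For Raet1e they were Sox7, a transcription factor of endothelial cells (0.90, and 0.82 within lines), Mansc1 (0.90) and Col4a2, a basement membrane collagen (0.90). For H60b they were Slc52a3, a riboflavin transporter (0.91), Fam167b (0.90) and Kcnj8, a potassium channel known from pericytes (0.90), with r of 0.82, 0.81 and 0.83 within lines. For Ulbp1 they were Lrp8, a receptor for reelin (0.89), the claudin gene Cldn12 (0.88) and the protocadherin gene Pcdhga5 (0.87), with r of 0.53, 0.52 and 0.20 within lines.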

How the data were processed

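The authors used STAR 2.5.3a for alignment (GRCm38) and featureCounts for counting, version 1.5.2 per the labels, and the deposited values are whole-number counts per gene without normalization. The column headers name alignments with duplicates removed by molecular identifiers. Strand and multi-mapping options are not given in the sources used here. The authors normalized with DESeq2, and edgeR was used here as the test that fits deposited counts, with DESeq2 as an alternative.

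Gene names came from GENCODE M21, which named 48058 of 48440 genes. All 30 sample columns were used. The sensitivity of each line came from the study's text, and the letters were given no meaning. The animal codes of the titles were not taken to pair the tumors. Over 62 pairs of tumors with one code in different lines, the deviations from the line means had a median correlation of 0.012. Of these pairs, 19 exceeded 0.1. Over 290 pairs with different codes in different lines the median was -0.0062, and 77 exceeded 0.1. No 2 tumors agreed within sampling noise.

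Genes passing edgeR's filterByExpr (16862 between lines, 16557 between letters) were fitted with TMM scaling and robust quasi-likelihood in edgeR 4.0.16, over all 30 tumors with the line as factor, or over 26 tumors with line and letter. The biological coefficient of variation was 0.221. Log2 CPM used a prior count of 2, and 95% intervals are normal intervals from the SE. P-values were adjusted by Benjamini-Hochberg over all tested genes. Single values were compared by exact two-sided permutation. P-values measure the spread between the tumors of these cell lines. On simulated data for MCA-970 against MCA-972 (16292 genes), 96.2% of 104 genes changed 4-fold and 46.9% of 96 genes changed 2-fold were called, with 3 false calls. For the letters (16192 genes) the shares were 96.2% and 53.1%, with 0 false calls. The simulation drew its changed genes at random and gave all genes the same coefficient of variation. Its shares therefore do not carry over to ligands with few counts and a wider spread, such as Raet1d and H60b.

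The genes described are the 5 ligands, the lists of other genes by their counts, with values for genes called in at least 5 of the 6 comparisons between classes or, in lists of 4 genes or fewer, for every gene, and the 3 genes most correlated with each ligand. Exceptions are marked in the text. The ligands and lists were chosen with earlier results of these data known. Alternatives were DESeq2 1.42.0, limma-voom (limma 3.58.1), RLE size factors, no filter, a mean of at least 1 CPM, animal code or set of library numbers as a term, other thresholds, fits on only the lines compared, omission of the MCA-969 tumors of opposite label, and leaving out each tumor. Marker scores as covariates, omission of the tumors of highest leukocyte sum, and fits on a tumors only were added after seeing the data. Sequences came from RefSeq (GRCm38.p6), in which 4 of the 5 ligands have promoter entries. Motifs were searched on both strands of the 250 bases before each start. No sample column was left out. R 4.3.3, Python 3.11.15, Biopython 1.88 and matplotlib 3.10.9 were used.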

Additional observations from a re-analysis of the deposited data

Results flagged for a closer look

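In groups of 4 to 10 tumors, the gap of the highest or lowest tumor to its neighbour was compared with Dixon's critical value at 95%. Of 25 groups, 2 were past it, where chance gives about 1 in 20. MCA-969 W-1D had 3.20 CPM of Raet1e, above the next of the 8 tumors at 2.22 CPM, and it is one of the MCA-969 tumors whose sensitivity label is opposite to that of its line. MCA-970 W-2D had a Raet1d share of 33.1% of the counts of Raet1d and Raet1e, below the next of the 6 tumors at 52.5%. Whether the W against a difference was unequal among the 4 lines was tested as an interaction in edgeR, and no ligand passed it.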

How the results depend on the processing

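The number of ligand calls between lines was 19, with 9 for Raet1d, 6 for Raet1e and 4 for H60b against MCA-970. The H60b calls are not counted as support. The number ran from 13 with the set of library numbers as a covariate (Raet1d 9, Raet1e 2) to 26 without a threshold on the fold change (Raet1d 9, Raet1e 7). On leaving out each tumor it ran from 14 to 20. The 14 came without MCA-970 a-1D, a-2D or a-2G, where H60b failed the filter, Raet1d had 8 calls and Raet1e 6. With the animal code as a replicate block the number was 18, and the lost call was Raet1d in MCA-970 against MCA-972 (log2 fold change 1.12, edgeR adjusted p = 0.104). The block changed no other call. The count of 0 for the letters held under every alternative run, and on leaving out each of 26 tumors. The count of 4 ligands over any line was 3 where H60b failed the filter, with a mean of at least 1 CPM or without MCA-970 W-2D, a-1D, a-2D or a-2G. Of 734 values under alternatives other than leaving out a tumor, 682 were scored as the same. For a single log2 fold change this means the same direction and side of the threshold. The 682 also hold counts of calls, for which even 13 or 26 in place of 19 was scored as the same. They hold differences between the classes too, which were scored on sign only. Another 23 values lost and 19 gained a call, and 10 changed sign, all 10 of them for differences not called. Those were Ulbp1, log2 fold change, MCA-948 against MCA-972 (DESeq2 -0.0072, RLE -0.0074, mean of at least 1 CPM -0.013, library set -0.28), H60b in MCA-943 against MCA-948 (limma-voom 0.076, leukocyte score 0.18), H60b in MCA-943 against MCA-972 (replicate block -0.18), Raet1e in MCA-943 against MCA-948 (leukocyte score 0.0066, without the 4 tumors of highest leukocyte sum 0.18) and H60b in MCA-969 against MCA-948 (a tumors only -0.18). On leaving out each tumor, sign changes occurred for Ulbp1 in MCA-948 against MCA-972 (-0.034 to 0.079) and in MCA-943 against MCA-969 (-0.24 to 0.020), for H60b in MCA-943 against MCA-972 (-0.24 to 1.20), and for the Raet1d share of Raet1d plus Raet1e, MCA-969 against MCA-948 (-0.197 to 4.18 points). The cause was not tested.

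Raet1d in MCA-943 against MCA-948 was called under DESeq2, without the MCA-969 tumors of opposite label, on a tumors only, and with the library set or the endothelial score as a covariate. Calls gained without 1 tumor were Raet1d in MCA-943 against MCA-948 (without MCA-943 a-R -1.87, MCA-948 W-1D -1.55, W-2D -1.54 or a-2G -1.51, MCA-969 W-1D -1.41 or MCA-970 W-2D -1.41), Ulbp1 in MCA-943 against MCA-948 (without MCA-943 a-1G -1.02), Raet1e in MCA-948 against MCA-972 (without MCA-948 a-R -1.15) and H60b in MCA-969 against MCA-972 (without MCA-972 a-R 2.60). The Raet1d share of Raet1d plus Raet1e, MCA-943 against MCA-969, was past an unadjusted exact p of 0.05 except without MCA-943 W-2G (0.0848) or a-1G (0.0727), and the share difference between MCA-943 and MCA-948 passed it only without MCA-943 a-1D (0.0121) or MCA-948 a-R (0.0303). The differences between the classes kept their sign under the alternatives run for them. Values of H60b, and of Raet1d in MCA-943 and MCA-948, rest on few counts.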
